A study of Mus musculus with 24 samples.

Results

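The genes described here are adipokines, the proteins that fat cells secrete as hormones, and genes that mark white adipocytes or adipocyte identity in general. The set holds Lep, Retn, Adipoq, Cfd, Nnat, Pparg, Plin1, Cebpa, Agt and Mest, and each gene was read from the brightest array feature annotated with its symbol and no other. Of these 10 genes, 9 were found among the 30142 genes with such a feature, and each had 1 feature; Cfd was not analysed here. The samples were brown adipose tissue (BAT) of mice in 4 groups: control mice on standard diet (SD), Gfap-Bmal1 cKO mice on SD, control mice on high fat diet (HFD), and Gfap-Bmal1 cKO mice on HFD. Each group had 3 arrays, each diet was given for 16 weeks, and the other 12 of the 24 arrays of the series came from the ventromedial hypothalamus (VMH) of the same 4 kinds of mice. The labels give no age or sex and do not spell out how the Gfap-Bmal1 cKO was made; Gfap is a gene best known from astrocytes, and Bmal1 encodes a transcription factor of the circadian clock. Whether each array stands for an animal of its own is not said in the labels either, and a p-value here is set by the array-to-array scatter, part of which may be technical. Total RNA was taken from 20 mg of BAT. Values are the deposited log2 signals, on which a difference of 1 is a doubling, and arrays are numbered 1 to 3 within a group as in the labels.

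White adipocytes store triglyceride in a large droplet and release leptin (Lep) in proportion to fat stores, while brown adipocytes burn fat for heat through Ucp1. PPAR gamma (Pparg) and C/EBP alpha (Cebpa) are the transcription factors that drive the formation of both kinds of adipocyte, and perilipin 1 (Plin1) coats their lipid droplet. Resistin (Retn) and adiponectin (Adipoq) are secreted by mouse adipocytes, angiotensinogen (Agt) is the precursor of the angiotensins and is also made by fat, and Mest and Nnat are imprinted genes expressed from the paternal allele that have been studied in expanding fat and in adipocyte differentiation.

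The promoters of 4 genes of the set are shown first, so that a reader can set the hormone genes Lep and Retn beside the imprinted genes Mest and Nnat. Each is the 250 bases before the RefSeq gene start, 5′ to 3′ on the strand of the gene, in build GRCm38.p6, and capitals mark a match to TTGCNNAA, a C/EBP-like motif. All 10 symbols of the set had an entry in the RefSeq promoter table, with 14 windows in all. Mest has 2 further RefSeq starts in the table, whose windows held none of the motifs named below, and the window of its first start is shown. The lines are Lep at chr6:29059971-29060220 on the + strand, Retn at chr8:3655520-3655769 on the + strand, Mest at chr6:30733256-30733505 on the + strand and Nnat at chr2:157559828-157560077 on the + strand.
Lep: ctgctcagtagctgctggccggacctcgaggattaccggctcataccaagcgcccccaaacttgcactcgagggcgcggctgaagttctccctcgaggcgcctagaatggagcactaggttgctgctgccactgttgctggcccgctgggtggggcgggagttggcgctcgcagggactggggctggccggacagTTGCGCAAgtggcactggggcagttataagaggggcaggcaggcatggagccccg
Retn: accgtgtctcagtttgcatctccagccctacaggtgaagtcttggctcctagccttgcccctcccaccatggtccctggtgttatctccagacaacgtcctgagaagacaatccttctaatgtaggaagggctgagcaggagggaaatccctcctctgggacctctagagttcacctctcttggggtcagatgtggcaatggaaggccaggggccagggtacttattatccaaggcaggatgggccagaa
Mest: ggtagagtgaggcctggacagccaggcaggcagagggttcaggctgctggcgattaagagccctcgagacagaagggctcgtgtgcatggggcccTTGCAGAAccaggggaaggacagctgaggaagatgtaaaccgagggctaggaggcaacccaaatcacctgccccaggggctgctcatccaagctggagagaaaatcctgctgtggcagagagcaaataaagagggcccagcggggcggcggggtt
Nnat: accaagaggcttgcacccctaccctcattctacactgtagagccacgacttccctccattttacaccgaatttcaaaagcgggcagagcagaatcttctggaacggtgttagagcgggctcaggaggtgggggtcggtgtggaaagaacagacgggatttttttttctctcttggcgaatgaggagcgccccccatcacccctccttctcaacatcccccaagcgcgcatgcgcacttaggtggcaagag
The match in the Lep window starts 55 bases before the gene start and that in the Mest window shown 155 bases before its start. The windows of Retn and Nnat held none of the 4 motifs searched on both strands, which were CACGTG (E-box), TTGCNNAA, AGGTCANAGGTCA (a PPAR element of the DR1 type) and TATAAA. Of 32851 promoter windows of this length, 6.02% held CACGTG, 9.56% TTGCNNAA, 0.0335% AGGTCANAGGTCA and 12.4% TATAAA. A match is a string of letters and not a measured binding site.

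The BAT arrays were checked for their own tissue before the members were read. Ucp1, the defining gene of brown fat, stood at the highest value of the table, 19.93, on 9 of 12 arrays, but at 8.87 on control SD 1, 16.3 on cKO SD 2 and 19.31 on cKO SD 3. Low values on these arrays were not limited to Ucp1. The mean log2 signal of 13 brown adipocyte genes, Ucp1 among them, was 7.56, 9.31 and 10.66 on them in that order. On the other arrays it was 11.49 to 12.43. Skeletal muscle markers moved with the arrays: the mean log2 signal of 16 such genes ran from 6.08 to 17.49 in the control SD group, from 14.72 to 17.29 in cKO SD, from 6.13 to 9.87 in control HFD and from 6.11 to 13.11 in cKO HFD. Of these 16 genes, 6, or 37.5%, fell on HFD at a limma adjusted p under 0.05 when the diet effect was averaged over genotypes. Of all genes tested, 17.6% passed there, 8.17% as lower. All 16 had negative differences, and their median difference was -6.36 against 0.0414 over all genes tested. The first principal component of the BAT arrays held 71.8% of the variance. In bulk tissue, fewer cells of a type and less RNA per cell cannot be told apart. Arntl, the array's name for Bmal1, had log2 signals of 5.8 to 7.24 in BAT and Gfap 3.47 to 3.63, below the level needed to enter the tests.

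Retn, the gene of resistin, fell on HFD. Its log2 signals were 17.79, 13.95 and 16.09 in control SD, 15.15, 16.89 and 17.14 in cKO SD, 10.06, 8.31 and 12.32 in control HFD, and 15.01, 13.47 and 14.25 in cKO HFD. All 3 control HFD arrays lay below every other array of the study's BAT, and cKO HFD 1 and 3 lay above control SD 2. The group means were 15.94 ± 1.92, 16.39 ± 1.09, 10.23 ± 2.01 and 14.24 ± 0.77 (SD, n = 3), in the same order. Averaged over genotypes, the diet difference was -3.93 ± 0.81 (SE), a 15.3-fold lower level, with an adjusted p of 0.019 by limma with Benjamini-Hochberg adjustment over 17800 genes. Within genotypes the difference was -5.72 ± 1.15 in controls (limma adjusted p = 0.0581) and -2.15 ± 1.15 in cKO mice (limma adjusted p = 0.286), neither of which passed. On HFD the cKO arrays stood 4.02 ± 1.15 above the controls without overlap, with an unadjusted limma p of 0.00598 and an adjusted p of 0.493. Of all genes tested, 19.5% did not overlap in that comparison, 7.39% with the cKO arrays higher. The interaction, which asks whether the diet difference depends on genotype, was 3.57 ± 1.62, with an unadjusted limma p of 0.0533 and an adjusted p of 1. The averaged diet call was lost without control SD 3 (limma adjusted p = 0.0502), without cKO SD 3 (0.0502) or without cKO HFD 2 (0.05002).

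Retn followed the muscle score as well as the diet. Over the 12 BAT arrays Pearson's r between them was 0.78 (permutation p = 0.0018, 0.0055 after adjustment over the 9 members) and Spearman's rho 0.79 (permutation p = 0.0034). Without the 2 arrays farthest from the median score, control SD 2 and cKO HFD 1, r was 0.98. Those 2 arrays had low scores but Retn of 13.95 and 15.01, above all 3 control HFD arrays. Leaving them out thus removed readings against the trend, and the same 2 arrays were left out for the other members below. The pooled permutations, here and for the other members, shuffled all 12 arrays without regard to group. A diet difference that a gene shares with the score therefore lowers the pooled p. Within the 6 SD arrays r was 0.88 (exact permutation p = 0.0056), and within the 6 HFD arrays it was 0.48 (exact permutation p = 0.33). With the muscle score as a covariate the averaged diet difference was -2.43 and no longer passed (limma adjusted p = 0.319); without the 2 arrays of lowest Ucp1 it was -3.35 (limma adjusted p = 0.0846). The 3 arrays of lowest muscle score were alike in that score, at 6.08 for control SD 2, 6.13 for control HFD 2 and 6.11 for cKO HFD 1. On them Retn read 13.95, 8.31 and 15.01. Control HFD 2 lay below control SD 2, which was fixed in advance because all 3 control HFD arrays lay below every other array. In contrast, cKO HFD 1 lay above control SD 2, against the order of the group means.

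**Figure D1:**
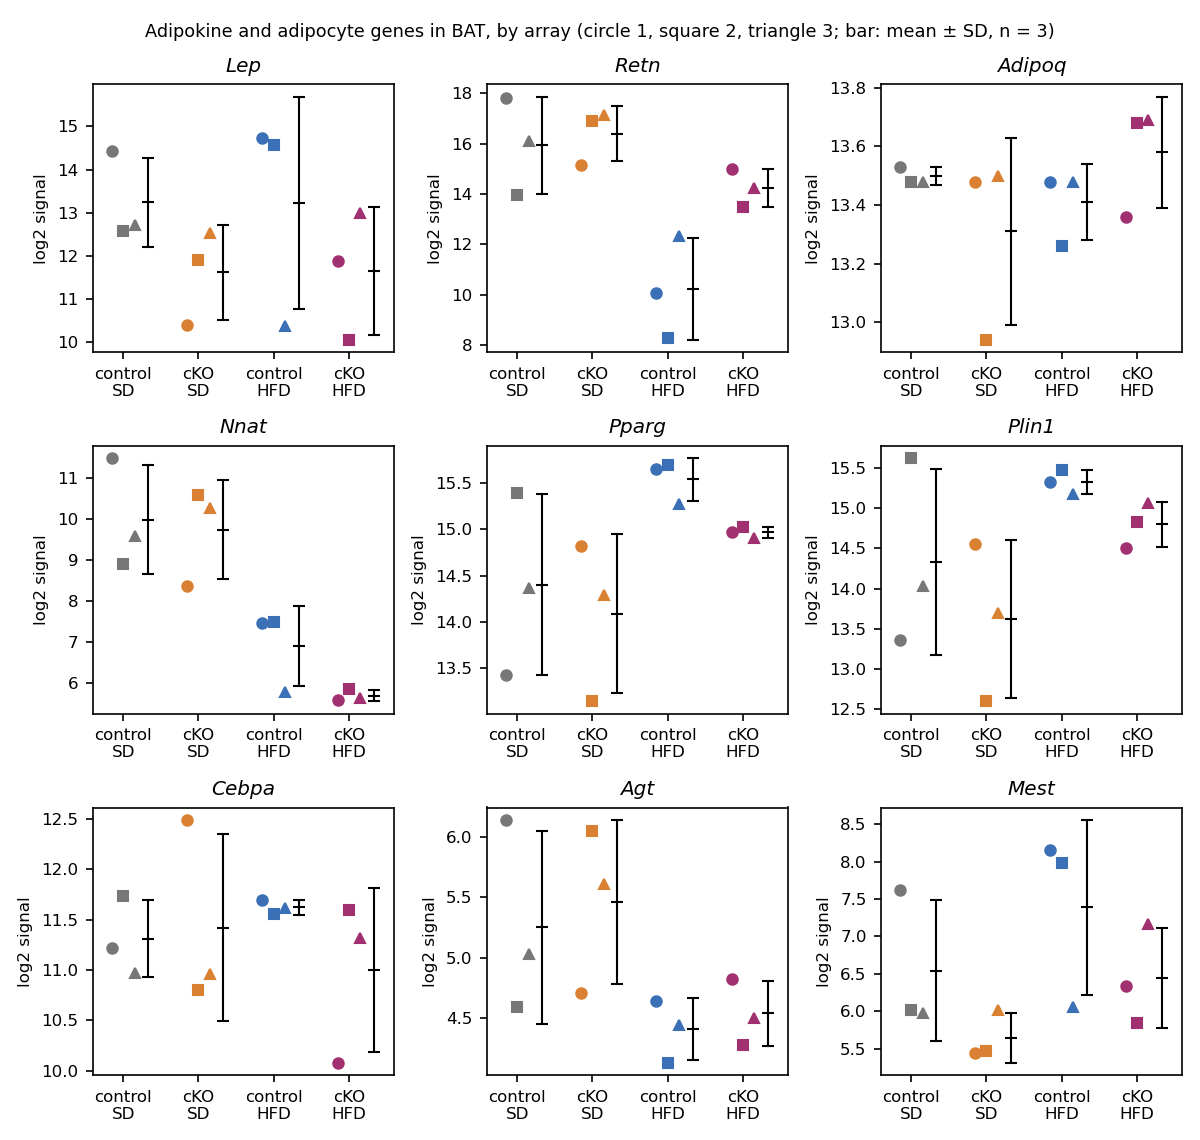
Log2 signal of the 9 genes on each of the 12 BAT arrays (circle, array 1; square, array 2; triangle, array 3), with the mean ± SD of each group of 3 drawn beside the points. The 3 control HFD arrays of Retn sit between 8.31 and 12.32, below all others, and the 6 HFD arrays of Nnat sit below the 6 SD arrays.

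Lep, the gene of leptin, had no diet or genotype difference that passed the test, and it varied widely within groups. Its log2 signals were 14.44, 12.59 and 12.72 in control SD, 10.4, 11.92 and 12.53 in cKO SD, 14.73, 14.57 and 10.39 in control HFD, and 11.89, 10.06 and 13 in cKO HFD. The 3 cKO SD arrays lay below the 3 control SD arrays, as they did for 3.68% of all genes tested. On HFD the groups overlapped, with control HFD 3 among the lowest of all arrays. The diet difference averaged over genotypes was 0.0066 ± 0.852 (limma adjusted p = 0.998), with group means of 13.25 ± 1.03 and 13.23 ± 2.46 (SD, n = 3) in controls on SD and HFD and 11.62 ± 1.1 and 11.65 ± 1.48 in cKO mice. The genotype difference was -1.63 ± 1.21 on SD (limma adjusted p = 0.984), -1.58 ± 1.21 on HFD (limma adjusted p = 0.797) and -1.61 ± 0.852 averaged over diets (limma adjusted p = 0.626), none of which passed. The 95% interval of the averaged genotype difference ran from -3.51 to 0.30, so differences of several fold in the lower direction lie within it.

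Adiponectin varied least among the 9 genes. Adipoq lay between 12.94 on cKO SD 2 and 13.69 on cKO HFD 3, with a median of 13.48, and 4 arrays carried exactly the same value of 13.48, below the 19.931 that is the highest value of the table. An identical value on 4 or more arrays occurred for 125 genes of the BAT table, and how it arose was not tested. Its diet difference averaged over genotypes was 0.09 ± 0.11 (limma adjusted p = 0.597) and its genotype difference -0.009 ± 0.112 (limma adjusted p = 0.987).

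Agt, the angiotensin precursor, was close to the median of the arrays, which was 4.01 to 4.093. It read 6.14, 4.59 and 5.03 in control SD, 4.71, 6.05 and 5.61 in cKO SD, 4.64, 4.13 and 4.44 in control HFD, and 4.82, 4.28 and 4.5 in cKO HFD. The 2 highest values were those of control SD 1 and cKO SD 2, the arrays of lowest Ucp1. The averaged diet difference was -0.88 ± 0.30 with a limma adjusted p of 0.0647, which missed the threshold of 0.05, and the genotype differences were 0.20 ± 0.42 on SD and 0.13 ± 0.42 on HFD. Over the 12 arrays Agt correlated with the muscle score at r = 0.75 (permutation p = 0.0043, adjusted 0.0097; rho 0.69, permutation p = 0.017; r = 0.82 without the 2 farthest arrays). The exact permutation p was 0.0083 within SD, where r was 0.71, and 0.75 within HFD, where r was -0.16.

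Nnat, an imprinted gene that encodes neuronatin, fell on HFD and was the one member whose 6 HFD arrays all lay below its 6 SD arrays. Its log2 signals were 11.48, 8.9 and 9.57 in control SD and 8.35, 10.57 and 10.27 in cKO SD. They were 7.45, 7.49 and 5.77 in control HFD and 5.57, 5.83 and 5.63 in cKO HFD. Among all genes tested, 5.23% separated the 2 diets without overlap in this way, 2.63% with the HFD arrays lower. The averaged diet difference was -3.57 ± 0.54, an 11.9-fold lower level, with a limma adjusted p of 0.0107, and it kept its call without each array in turn (limma adjusted p from 0.00316 to 0.0352). Within genotypes the difference was -3.08 ± 0.77 in controls (limma adjusted p = 0.0891) and -4.05 ± 0.77 in cKO mice (limma adjusted p = 0.101). The genotype difference was -0.25 ± 0.77 on SD and -1.23 ± 0.77 on HFD (limma adjusted p = 0.989 and 0.733), and the interaction was -0.97 ± 1.09 (limma adjusted p = 1).

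The muscle score moved with Nnat over all arrays but not within HFD. Pearson's r was 0.65 over 12 arrays (permutation p = 0.027, adjusted 0.048; rho 0.67, permutation p = 0.022; r = 0.72 without the 2 farthest arrays), 0.59 within SD (exact permutation p = 0.24) and -0.56 within HFD (exact permutation p = 0.29). By rank the relation within SD was stronger, with a Spearman's rho of 0.94 (exact permutation p = 0.017). Within HFD rho was -0.09 (exact permutation p = 0.92). With the score as a covariate the averaged diet difference was -2.92 and no longer passed (limma adjusted p = 0.185). Without the 2 arrays of lowest Ucp1 it was -2.98 and passed (limma adjusted p = 0.0479). On the 3 arrays of matched low muscle score, Nnat read 8.9 on control SD 2, 7.49 on control HFD 2 and 5.57 on cKO HFD 1. Both HFD arrays lay below the SD array, an order fixed in advance because all 6 HFD arrays lay below all 6 SD arrays. The comparison is therefore no test of the part of muscle.

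Mest, the other imprinted gene of the set, read 7.62, 6.01 and 5.98 in control SD, 5.44, 5.47 and 6.02 in cKO SD, 8.15, 7.98 and 6.05 in control HFD, and 6.34, 5.84 and 7.16 in cKO HFD. The highest arrays were control HFD 1 and 2 and control SD 1, and the groups overlapped in all 4 comparisons of a genotype or diet. The diet difference averaged over genotypes was 0.83 ± 0.44 (limma adjusted p = 0.201) and the genotype difference -0.92 ± 0.44 (limma adjusted p = 0.59); neither passed. The 3 arrays highest in Lep were the 3 highest in Mest, while control HFD 3, among the lowest in Lep at 10.39, read 6.05 in Mest, next to its median of 6.04. Pearson's r between the 2 genes was 0.85 over the 12 arrays, 0.9 within SD and 0.99 within HFD, and Spearman's rho was 0.73, 0.77 and 1. This pair was singled out after the 9 genes had been compared with each other, so these values are a description. Npr3, a natriuretic peptide receptor gene from the list of white adipocyte genes, read 15.76, 15.82 and 15.58 on the same 3 arrays and 11.16 to 13.69 on the others. Npr3 does not stand for that list. Sncg read 15.35, 15.43 and 14.32 on the same 3 arrays and 11.28 to 14.98 on the others, so the ranges overlapped. On the 3 arrays Slc7a10 read 9.93, 6.97 and 6.41, Dpt 15.53, 12.74 and 11.24, and Hoxc8 9.88, 5.7 and 5.16.

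**Figure D2:**
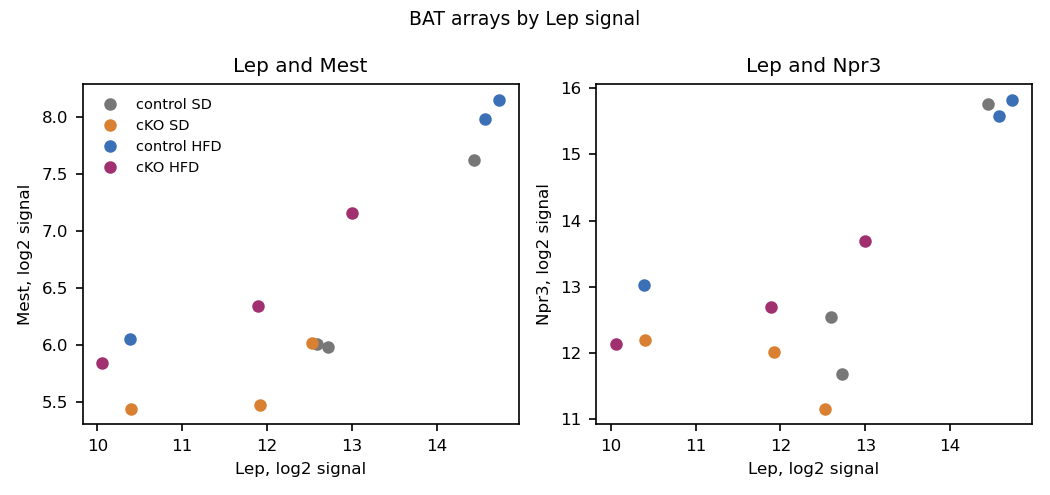
Log2 signal of Mest (left) and Npr3 (right) against that of Lep on the 12 BAT arrays, coloured by group. Control SD 1, control HFD 1 and control HFD 2 form the upper right of both panels, with Mest at 7.62, 8.15 and 7.98.

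The adipocyte core genes Pparg and Plin1 moved together and against the muscle score. Pparg read 13.43, 15.39 and 14.37 in control SD, 14.82, 13.14 and 14.29 in cKO SD, 15.65, 15.7 and 15.27 in control HFD, and 14.97, 15.03 and 14.91 in cKO HFD. Plin1 read 13.36, 15.62 and 14.03 in control SD, 14.56, 12.6 and 13.7 in cKO SD, 15.32, 15.47 and 15.17 in control HFD, and 14.5, 14.83 and 15.06 in cKO HFD. For both genes the lowest arrays were cKO SD 2 and control SD 1, and the HFD groups were far tighter than the SD groups. The averaged diet difference was 1.01 ± 0.35 for Pparg (limma adjusted p = 0.0708) and 1.08 ± 0.41 for Plin1 (limma adjusted p = 0.0902), so neither passed. On HFD the 3 cKO arrays lay below the 3 control arrays for both genes, as they did for 12.2% of all genes tested. The differences in the fit were -0.57 ± 0.50 for Pparg and -0.52 ± 0.58 for Plin1, with limma adjusted p of 0.822 and 0.882. In the same comparison all 16 muscle markers had positive differences (median 2.19) and 9 of 10 endothelial and mural markers negative ones (median -1), 6 of the 10 with an unadjusted limma p under 0.05 and none past adjustment. The mean log2 signal of the endothelial list was 10.15 to 10.88 in control HFD and 9.52 to 9.6 in cKO HFD; its part in the values of Retn, Pparg and Plin1 was not tested.

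Pparg correlated with the muscle score at r = -0.85 over 12 arrays (permutation p = 6e-05, adjusted 0.00054; rho -0.89, permutation p = 0.00028; r = -0.9 without the 2 farthest arrays). Plin1 correlated with it at r = -0.82 (permutation p = 0.00086, adjusted 0.0039; rho -0.84, permutation p = 0.00099; r = -0.88 without the 2 farthest arrays). Within SD r was -0.8 for Pparg and -0.87 for Plin1 (exact permutation p = 0.0042 for each), and within HFD it was -0.59 and -0.06 (exact permutation p = 0.23 and 0.89). With the score as a covariate the diet difference was 0.28 for Pparg and 0.30 for Plin1. The remaining members, Lep, Adipoq, Cebpa and Mest, had pooled r between -0.34 and -0.06 and pooled rho between -0.38 and 0.21. Without the 2 farthest arrays r was -0.53 for Mest, -0.46 for Cebpa, -0.17 for Lep and -0.12 for Adipoq. Within HFD, where Adipoq spanned only 13.26 to 13.69, its r with the score was 0.9 (exact permutation p = 0.011) and rho 0.93 (exact permutation p = 0.017). Both Adipoq and the score were highest there on cKO HFD 2 and 3, and the shuffle ignored genotype. Within SD r was -0.24 (exact permutation p = 0.56). For Lep, Cebpa and Mest Pearson's r within a diet lay between -0.46 and 0.34. In all, 27 such relations were computed, 9 pooled and 18 within a diet, and only the pooled ones were adjusted.

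**Figure D3:**
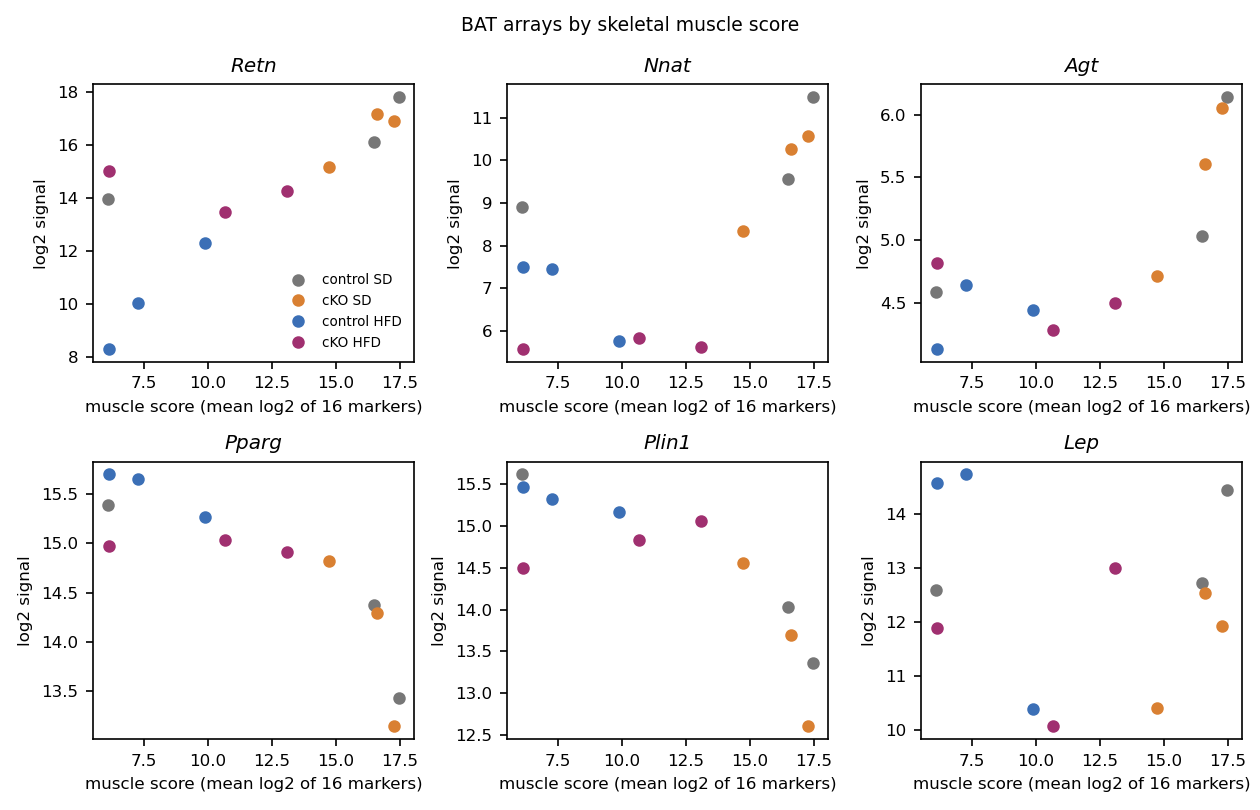
Log2 signal of 6 genes on the 12 BAT arrays against the muscle score, the mean log2 signal of 16 skeletal muscle markers, coloured by group. Retn, Nnat and Agt are highest and Pparg and Plin1 lowest on the SD arrays of high score, while Lep has no trend (r = -0.1).

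Cebpa did not separate the groups. It read 11.22, 11.73 and 10.97 in control SD, 12.49, 10.8 and 10.96 in cKO SD, 11.69, 11.56 and 11.61 in control HFD, and 10.08, 11.59 and 11.32 in cKO HFD. Single arrays made the spread of the cKO groups, with cKO SD 1 the highest of all and cKO HFD 1 the lowest. The averaged diet difference was -0.05 ± 0.34 (limma adjusted p = 0.931) and the averaged genotype difference -0.26 ± 0.34 (limma adjusted p = 0.832).

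Over the set, 2 of 9 genes, or 22.2%, passed the test for the diet effect averaged over genotypes, both lower on HFD, where 17.6% of all genes passed, 9.44% as higher and 8.17% as lower. The share of the set is thus near the background, and the median difference of the 9 genes was 0.007 against 0.0414 over all genes. None of the 9 passed in the other 6 comparisons by limma, where 0.742% of all genes passed for diet in controls and 0% in each of the rest. At an unadjusted limma p under 0.05 there were 3 members for diet in controls, 1 for diet in cKO mice, 1 for genotype on HFD, 1 for genotype averaged over diets, and 0 for genotype on SD and for the interaction. The shares of all genes at that level were 22.6%, 22.5%, 8.21%, 8.65%, 3.57% and 3.83% in the same order. Groups did not overlap for Retn and Nnat (lower) with diet in controls, where 24.7% of all genes did not overlap, and for Pparg (higher), Retn and Nnat (lower) with diet in cKO mice, where 28.5% did not. For genotype they did not overlap for Lep (lower) on SD, against 7.21% of all genes (3.53% higher, 3.68% lower). On HFD they did not overlap for Retn (higher), Pparg and Plin1 (lower), against 19.5% of all genes (7.39% higher, 12.2% lower). The comparisons of a group with 2 others share that group's arrays.

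**Figure D4:**
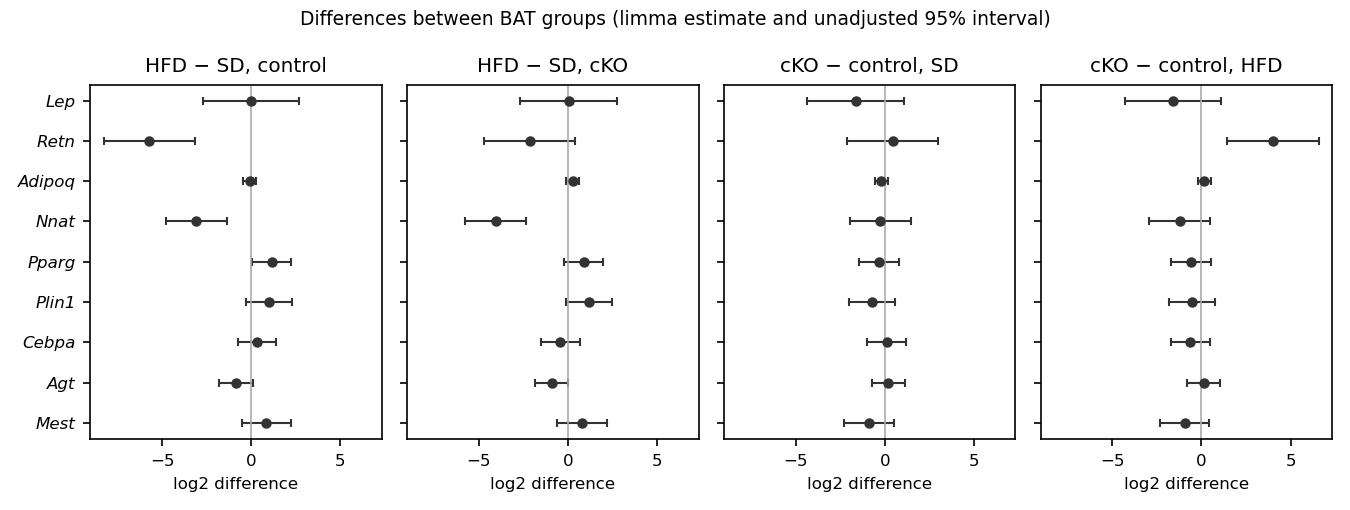
Differences of the 9 genes between BAT groups, as limma estimates with unadjusted 95% intervals, for diet within each genotype and genotype within each diet. Retn at -5.72 and 4.02 and Nnat at -3.08 and -4.05 are the estimates farthest from 0, and all genotype intervals on SD cross 0.

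Genes of the same pathways were read from lists, with genes named for having passed the averaged diet test and so chosen after their values were seen. The counts below stand against the 17.6% of all genes that passed: the share was 16.7% of the tested receptors and partners, 27.8% of the other adipokines, 22.2% of the other white adipocyte genes, 18.2% of the imprinted genes, 20% of the general adipocyte genes, 13.3% of the adipogenic factors and 7.69% of the brown adipocyte genes. Among 12 tested receptors and partners of the members, 2 rose on HFD: Cap1, whose protein has been described as a resistin receptor, by 1.04 ± 0.14 (limma adjusted p = 0.00971), and Abhd5, which Plin1 holds at the lipid droplet, by 0.61 ± 0.15 (limma adjusted p = 0.0302). The leptin receptor gene Lepr had a difference of -0.47 ± 0.15 (limma adjusted p = 0.0608), and the adiponectin receptor genes Adipor1 and Adipor2 had 0.20 ± 0.10 and 0.73 ± 0.39 (limma adjusted p = 0.193 and 0.201). The angiotensin receptor gene Agtr1a had 0.05 ± 0.07 (limma adjusted p = 0.634), so 3 of these 4 receptor genes had positive differences and none of the 4 passed.

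Among 18 tested other adipokines, 4 rose and 1 fell on HFD. Angptl4, an inhibitor of lipoprotein lipase, rose by 2.64 ± 0.52, haptoglobin (Hp) by 1.88 ± 0.37, lipocalin 2 (Lcn2) by 1.58 ± 0.39 and C1qtnf9, a relative of adiponectin, by 0.76 ± 0.22. Retnla, a relative of resistin best known from alternatively activated macrophages, fell by 2.53 ± 0.67 (limma adjusted p = 0.0355). Among 9 tested other white adipocyte genes, Slc7a10 fell, with a difference of -2.06 ± 0.53, and Trem2, a gene known from macrophages, had a difference of 0.50 ± 0.07. Trem2 read 3.71 to 3.88 on the SD arrays, under the filter of 4.0535, and entered the test only through its HFD arrays, so its call carries no weight. The white adipocyte genes Tcf21 and Wt1 were under the filter, at 3.11 to 3.58 on all arrays. Others of the list were high on every array, with Sncg at 11.28 to 15.43, Dpt at 11.24 to 15.53 and Npr3 at 11.16 to 15.82. Hoxc8 ran from 4.35 to 9.88, Sfrp5 from 4.79 to 5.74 and Hoxc9 from 4.03 to 4.28.

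Among 11 tested imprinted genes, Nnat and Cdkn1c, a cell cycle inhibitor gene, fell, the latter with a difference of -0.62 ± 0.17, and the median of the list was -0.155. Among 15 tested general adipocyte genes, Aqp7, a glycerol channel gene, rose by 2.03 ± 0.60, and Plin4, a lipid droplet coat gene, and Lpl, the lipoprotein lipase gene, fell, with differences of -1.60 ± 0.26 and -0.33 ± 0.09. Among 15 tested adipogenic transcription factors and partners, Ebf1 and Nr1h3 rose, by 1.19 ± 0.30 and 0.53 ± 0.16. Among 13 tested brown adipocyte genes, Ebf2 rose by 1.89 ± 0.58, and 12 of the 13 had positive differences, with a list median of 1.38. Of the called genes named from these lists, Cap1, Angptl4, Hp and Plin4 kept their call without each array in turn. Lcn2 lost it in 6 of the 12 fits that left out 1 array, Abhd5, C1qtnf9, Cdkn1c, Lpl and Ebf1 in 9, and Retnla, Slc7a10, Aqp7, Nr1h3 and Ebf2 in 10. For genotype on HFD, and for genotype averaged over diets, none of these lists had a gene that passed.

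Markers of other cell types moved in the same comparison. Macrophage markers rose in 8 of 12 cases, among them Cd68 by 2.67 ± 0.29, and the mean log2 signal of the list was 6.2 to 7.2 on SD and 7.47 to 8.78 on HFD arrays. Endothelial and mural markers rose in 7 of 10. None of 8 fibroblast and precursor markers passed, though all 8 had negative differences (median -0.678), and none of 2 erythroid markers passed. Of 4 tested nerve and Schwann cell markers, 1 fell, Ncam1, and no lymphocyte marker was high enough to be tested. With the muscle score as a covariate 1 macrophage marker and no gene of any other list passed; without the 2 arrays of lowest Ucp1, 5 macrophage markers, 1 general adipocyte gene, 1 imprinted gene and no gene of the other lists did. The part of macrophages, endothelial cells and fibroblasts in the values of the members was not tested.

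The genes most like each member over the 12 BAT arrays, by Pearson's r among all tested genes, are given as a description. For Lep it was Hspa12a (r = 0.898), and for Mest 4930579G24Rik (r = 0.966) followed by Npr3 (r = 0.93); 4930579G24Rik was also the next after Hspa12a for Lep (r = 0.861). For Retn it was Cbx5 (r = 0.984), for Nnat Perm1 (r = 0.966) and for Agt Galnt17 (r = 0.98). For Pparg it was Sfxn5 (r = 0.991) and for Plin1 Lonp2 (r = 0.99), followed by Lipe, the hormone-sensitive lipase gene (r = 0.986). Cebpa and Adipoq had no gene above r = 0.88.

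In the VMH, whose arrays were tested separately, 4 members were high enough to be tested. Nnat read 12.11 to 12.95 over the 12 arrays, Agt 11.73 to 12.53, Mest 10.06 to 10.38 and Retn 5.34 to 5.81, while Lep, Adipoq, Pparg, Plin1 and Cebpa stayed under the filter of 5.3885. None of the 4 passed in any of 6 comparisons by limma, none had an unadjusted p under 0.05, and the smallest adjusted p was 0.595, for Retn with diet in cKO mice. The share of all VMH genes that passed was 0.263% for genotype on SD (0.245% higher, 0.0179% lower), 0.287% for genotype on HFD (0.233% higher, 0.0538% lower), 0.615% for genotype averaged over diets, 0.00597% for diet in cKO mice and 0% for diet in controls and for the interaction. The diet difference of Nnat in the VMH was -0.06 ± 0.17 in controls and -0.06 ± 0.17 in cKO mice.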

How the data were processed

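RNA of 24 samples was read on Affymetrix arrays, 12 of BAT and 12 of VMH. The submitters' processing notes name Affymetrix Expression Console 1.1.1 and PLIER 2.0, without saying what each did. The deposited values are log2 signals of 72688 features per the file headers and values, with a ceiling at 19.931; how background was corrected and arrays normalized is not given in the sources used here. Of these features 6732 were controls, 30604 had 1 gene symbol, 2146 several and 33206 none in the platform annotation. The brightest feature of a gene was kept, and genes with a mean at or above the median of the non-control features (4.0535 in BAT, 5.3885 in VMH) were tested, which left 17800 genes in BAT and 16738 in VMH. A model of 4 group means per tissue was fitted with limma 3.58.1 in R 4.3.3 (lmFit, eBayes), with Benjamini-Hochberg adjustment within a comparison and a threshold of 0.05; the code was tested on simulated data. Signal, not counts, was deposited, and the 3 arrays per group limit the precision. Median signals of the BAT arrays were 4.01 to 4.093, and no pair of arrays was identical. The members, lists and alternatives were chosen with earlier results of these data known, the muscle covariate and the removal of the 2 arrays of lowest Ucp1 among them. Genes other than the members were to be named as those of smallest p in each list for diet in controls and genotype on HFD, with 4 receptor genes and the 3 genes most correlated with each member; those named for the averaged diet effect were chosen after their values were seen. Permutation tests of correlations were two-sided, exact within a diet and with 100000 resamples over 12 arrays. The shuffles over 12 arrays ignored diet and genotype, and those within a diet ignored genotype. The lists were brown, general and other white adipocyte genes, adipogenic factors, other adipokines, receptors and partners, imprinted genes, and markers of muscle, macrophage, endothelial, fibroblast, erythroid, lymphocyte and nerve cells. Alternatives were quantile normalization, a pseudocount of 16, no filter, the mean of features, array weights, a trended robust prior, a fit of only the groups compared, the replicate number as a block, each array left out, the muscle covariate, and no arrays of low Ucp1.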

Additional observations from a re-analysis of the deposited data

How the results depend on the processing

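All values are log2 differences or counts by limma. Among 1359 alternative values of the 63 member differences, 79 changed sign, 20 gained a call and 6 lost one; by gene, 25 sign changes were for Lep, 14 for Agt, 12 for Cebpa, 9 for Adipoq, 7 for Mest, 5 for Pparg, 3 for Nnat, and 2 each for Retn and Plin1. None of the sign changes had an adjusted p under 0.308, and the cause of these changes was not tested. With quantile normalization the differences were for diet in controls Lep 0.0558 in place of -0.0199, for genotype averaged over diets Adipoq 0.0294 in place of -0.00898, for diet averaged over genotypes Cebpa 0.00243 in place of -0.0521, for the interaction Mest 0.0205 in place of -0.0549. With array weights the differences were for diet in controls Lep 0.215 in place of -0.0199, for diet in cKO mice Lep -1.13 in place of 0.0331 and Cebpa 0.244 in place of -0.420, for genotype on SD Cebpa -0.436 in place of 0.109, for genotype averaged over diets Adipoq 0.105 in place of -0.00898, for diet averaged over genotypes Lep -0.457 in place of 0.00662 and Cebpa 0.219 in place of -0.0521, for the interaction Lep -1.35 in place of 0.0530 and Cebpa 0.0496 in place of -0.736. With the muscle covariate the differences were for diet in controls Lep 0.162 in place of -0.0199, for genotype on SD Retn -0.273 in place of 0.449 and Pparg 0.0411 in place of -0.311 and Agt -0.00952 in place of 0.203, for genotype on HFD Agt -0.0358 in place of 0.129, for genotype averaged over diets Agt -0.0226 in place of 0.166. Without the 2 arrays of lowest Ucp1 the differences were for diet in controls Lep 0.576 in place of -0.0199, for genotype on SD Adipoq 0.0107 in place of -0.189 and Nnat 0.0727 in place of -0.255, for genotype averaged over diets Adipoq 0.0908 in place of -0.00898, for the interaction Lep -0.391 in place of 0.0530. Leaving out 1 array at a time, the differences that changed sign ranged as follows. For diet averaged over genotypes they were Lep -0.367 to 0.716, Cebpa -0.206 to 0.216, Adipoq -0.00125 to 0.145. For diet in cKO mice they were Lep -0.64 to 0.828, Cebpa -0.729 to 0.116. For diet in controls they were Lep -0.767 to 1.4. For genotype averaged over diets they were Agt -0.000257 to 0.388, Adipoq -0.0575 to 0.0832. For genotype on HFD they were Agt -0.0123 to 0.255. For genotype on SD they were Nnat -0.797 to 0.496, Retn -0.547 to 1.37, Pparg -0.794 to 0.185, Agt -0.13 to 0.646, Cebpa -0.426 to 0.418. For the interaction they were Lep -1.36 to 0.847, Pparg -0.756 to 0.223, Plin1 -0.449 to 0.679, Agt -0.517 to 0.259, Mest -0.727 to 0.325.
The averaged diet effect had 1 to 5 members called without 1 array: 5 without control SD 2 or cKO SD 1, where Pparg, Plin1 and Agt also passed, and 1 without control SD 3, cKO SD 3 or cKO HFD 2. Members called for diet in controls ranged from 0 to 3 (3 without control SD 2, 1 without control HFD 3) and in cKO mice from 0 to 1 (Nnat, without control SD 2 or cKO SD 1). Members called were 5 with array weights for diet in cKO mice and 5 for the averaged diet effect, whose count was 0 with the muscle covariate and 1 without the arrays of low Ucp1. Counts of all genes called for the averaged diet effect were 3135 as reported, 5484 with array weights, 14 with the muscle covariate, 119 without the arrays of low Ucp1, 2117 without a filter and 710 to 5998 without 1 array. For diet in controls 132 genes became 0 with array weights, the muscle covariate or without the arrays of low Ucp1, and 0 to 2674 without 1 array. With only the groups compared, 152 genes passed, 23 higher and 129 lower in place of 109 higher and 23 lower. That fit estimated each gene's spread from the arrays of those groups alone. No difference changed, and the 22 genes called in both fits (15 higher, 7 lower) had the same direction. Why the calls went from mostly higher to mostly lower was not tested. For diet in cKO mice the count was 12 with quantile normalization, 1 with only the groups compared, 8439 with array weights, 1 without the arrays of low Ucp1 and 0 to 1161 without 1 array. For genotype on HFD it was 2 with the trended robust prior, 143 with array weights, 1 without the arrays of low Ucp1 and 0 to 16 without 1 array; for genotype averaged over diets 3 with array weights and 0 to 5 without 1 array; for the interaction 0 to 2 and for genotype on SD 0 without 1 array. The array weight estimate gave a convergence warning in BAT. The fit of only the groups compared has no value for the averaged effects and the interaction, which use all 4 groups. With the replicate number as a block, 1515 genes passed for the averaged diet effect and 0 for diet in controls, while Retn (adjusted p = 0.0302) and Nnat (0.0284) kept their calls. Same-numbered arrays deviated together at r of -0.769 to 0.387 (median 0.0912, 18 pairs). Arrays of other numbers did so at -0.45 to 0.809 (median -0.0214, 36 pairs). Since not every same-numbered pair was above 0.1, the numbers were not taken to pair the samples. In the data, 6 of 12 arrays matched best with their own number in another group. This count was not set against what unrelated numbers would give, and the closest pair of all had different numbers. Of 483 alternative values of the genes named outside the set, 169 lost the call and 3 gained one. Signals near the array median, as for Agt, limit what the arrays can resolve, and values at the ceiling, as for Ucp1, are only lower bounds.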
